A study of Mus musculus with 24 samples.

Results

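The Kruppel-like factors are transcription factors that bind GC-rich and CACCC-type DNA through zinc fingers at their carboxyl end. The genes described here are Klf2, Klf3, Klf4, Klf5, Klf6, Klf7, Klf10, Klf11, Klf13 and Klf15, taken by symbol from the table of estimated counts. They are 10 of its 20351 genes, and the table lists 7 other Klf genes and 9 genes of the related Sp family. All 10 passed the filter on low counts that left 14411 genes for the test, with 83 to 5386 rounded counts for a member in a library.

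HL-1 cells, a mouse cell line derived from atrial cardiomyocytes, were transduced for 48 h with adenovirus at an MOI (virus particles able to infect, per cell) of 30. The hairpin RNA expressed from it was directed at MuRF1, a muscle ubiquitin ligase encoded by Trim63, or was a scrambled one. The labels call these groups knockdown and control, and every group thus carried adenovirus and a hairpin. The cells grew in serum-free medium on elastic plates coated with gelatin and fibronectin. Cyclic stretch of 15% at 1 Hz then lasted 60 min, or 0 min in the non-stretched groups, and the labels name the stretch uniaxial in one field and biaxial in another. Poly(A) RNA was sequenced in 24 libraries, 6 per group, all of 1 cell line. Only 1 hairpin construct against MuRF1 is named, so an effect of MuRF1 loss and an effect of that hairpin on other transcripts cannot be told apart.

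The family is divided by the partners that its members recruit. Klf2, Klf4, Klf5, Klf6 and Klf7 are mostly activators that work with acetyltransferases, Klf3 is a repressor that recruits the CtBP proteins, and Klf10, Klf11 and Klf13 recruit the SIN3 corepressor. Klf15, which stands apart from these, is known in the heart as a brake on hypertrophic growth and a regulator of amino acid and lipid use. Several members are known as early response genes: Klf2 and Klf4 respond to fluid flow in endothelium through ERK5 and MEF2, Klf10 and Klf11 to TGF-beta, and Klf15 to glucocorticoids.

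The RefSeq promoter table, on GRCm38.p6, held a window of 300 bases, 250 before and 50 after the gene's start, for 8 of the 10 members. It had none for Klf5 and Klf10. The windows of 4 members with differences described below are shown. They are Klf6 and Klf7, higher after stretch, Klf15, lower after stretch in knockdown cells, and Klf2, higher with the knockdown. Klf7 was also lower with the knockdown. Windows of other members with differences, such as Klf13, are not shown. Capitals mark matches, on either strand, to GGGCGG (the GC box), CCACCC (the KLF box) or GCCNCGCCC, and in Klf2 also to the MEF2 consensus. Klf6 is read from chr13:5861239-5861538 on the plus strand, Klf7 from chr1:64121340-64121639 on the minus strand, Klf15 from chr6:90462326-90462625 on the plus strand and Klf2 from chr8:72318812-72319111 on the plus strand.
Klf6: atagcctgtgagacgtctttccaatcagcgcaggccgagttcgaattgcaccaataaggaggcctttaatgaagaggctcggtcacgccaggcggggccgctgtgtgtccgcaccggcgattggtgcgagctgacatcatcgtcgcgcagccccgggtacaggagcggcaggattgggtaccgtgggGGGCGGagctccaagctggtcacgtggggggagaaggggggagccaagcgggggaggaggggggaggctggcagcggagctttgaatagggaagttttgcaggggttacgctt
Klf7: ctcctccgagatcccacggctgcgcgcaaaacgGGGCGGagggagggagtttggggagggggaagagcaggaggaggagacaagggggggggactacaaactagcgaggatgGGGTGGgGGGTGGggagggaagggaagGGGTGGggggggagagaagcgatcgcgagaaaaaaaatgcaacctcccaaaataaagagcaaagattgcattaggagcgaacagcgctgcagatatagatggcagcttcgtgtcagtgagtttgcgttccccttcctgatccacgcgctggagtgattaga
Klf15: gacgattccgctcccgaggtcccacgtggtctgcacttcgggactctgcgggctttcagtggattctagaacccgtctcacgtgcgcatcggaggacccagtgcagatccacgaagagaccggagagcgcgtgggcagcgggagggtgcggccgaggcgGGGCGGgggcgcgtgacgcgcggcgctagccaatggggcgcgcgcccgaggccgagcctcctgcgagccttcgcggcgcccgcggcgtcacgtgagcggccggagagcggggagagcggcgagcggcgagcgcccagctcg
Klf2: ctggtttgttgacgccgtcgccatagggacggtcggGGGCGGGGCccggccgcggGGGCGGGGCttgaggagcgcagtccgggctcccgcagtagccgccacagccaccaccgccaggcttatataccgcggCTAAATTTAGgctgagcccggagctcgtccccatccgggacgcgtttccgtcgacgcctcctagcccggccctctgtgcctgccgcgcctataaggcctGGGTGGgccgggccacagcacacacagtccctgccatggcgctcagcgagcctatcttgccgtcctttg

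All 8 member windows held a GC box, against 35.7% of the 32851 windows in the table. These windows were also richer in G and C, at 58.3% (Klf7) to 77.7% (Klf11), than the median window, at 52.7%. A KLF box stood in 4 of 8 (Klf2, Klf3, Klf7 and Klf13) against 31.5% of all windows, and Klf7 had 3 of them between 138 and 106 bases before its start. The GCCNCGCCC word, which can overlap the GC box, was found in 5 of 8 against 14.7%. The MEF2 consensus matched in 1 window, that of Klf2, as CTAAATTTAG from 118 to 109 bases before the start, and in 3.19% of all windows. The words TGANTCA (AP-1), TGACGTCA (CRE) and TATAAA and the NF-kB and SRF CArG consensus sequences, searched on both strands, were in none of the 8 and in 7.81%, 1.79%, 13.6%, 4.51% and 1.63% of all windows. These are matches of letters in a short window and say nothing of binding.

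By GENCODE vM21 on GRCm38, the genes lie on 10 different chromosomes, from Klf7 on chromosome 1 (64029447 to 64122282) to Klf10 on chromosome 15 (38291463 to 38300706). Gene spans run from 2624 bases for Klf2 (chromosome 8, 72319033 to 72321656) to 92836 bases for Klf7. The RefSeq start used for the Klf7 window lies inside that span, downstream of its outer end. Klf3, Klf7 and Klf13 overlap other annotated genes, for Klf13 the protein-coding E030018B13Rik on the opposite strand. The overlap is of whole gene spans, introns included, and overlap of exons was not examined. Whether the authors' counting used strand is not given in the sources used here. Whether reads of a partner entered the counts of these 3 genes was not tested.

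The table totals were 23.6 M counts for stretched control replicate 5 and 37.7 to 54.8 M for the other 23 libraries. Levels are given as CPM, a gene's counts relative to the library's total after scaling with edgeR's TMM factors. Trim63 itself lay at 536 to 707 in non-stretched and 687 to 882 CPM in stretched control cells. In knockdown cells it lay at 54.2 to 57.4 without and 60.0 to 83.5 with stretch, a fitted log2 fold change of -3.52 and -3.51. Of the 12 cardiomyocyte markers, Tnnt2 (troponin T) had 969 to 1378 CPM in control and 480 to 583 in knockdown cells. The atrial markers among them differed widely in level. Myl7 had 151.5 to 240.3 CPM in control and 64.9 to 79.3 in knockdown cells. Myl4 had 4.09 to 6.83 CPM in control and 3.61 to 5.70 in knockdown cells. Nppa and Sln stayed at or below 0.858 and 0.164 CPM in every library. The summed level of the 12 markers was 2083 to 2574 CPM in control and 962 to 1172 in knockdown cells, and 10 of the 11 tested fell in both knockdown comparisons. The summed 8 fibroblast markers, with Tcf21 near 0, lay at 216 to 250 CPM in control and 79.9 to 101 in knockdown cells. Most of that fibroblast sum in control cells was Col1a1, at 119.5 to 149.5 CPM, and Col3a1, at 79.6 to 92.2 CPM. Smooth muscle markers (5) summed to 2459 to 2833 CPM in control and 1696 to 1914 in knockdown cells. Most of the smooth muscle sum was Acta2, at 2193 to 2519 CPM in control and 1463 to 1667 in knockdown cells. Myh11, of the same list, stayed at 0.292 to 1.105 CPM over all groups. Endothelial markers (8) summed to 7.70 to 10.8 CPM over all groups, with Cdh5 and Emcn below 0.1 CPM in every library. Macrophage markers (6 of 7 in the table) summed to 1.58 to 2.06 CPM in non-stretched control, 2.28 to 3.67 in stretched control, 2.20 to 2.91 in non-stretched knockdown and 2.99 to 4.03 in stretched knockdown cells, with Adgre1 and Mrc1 below 0.1 CPM. Most of the macrophage sum was Cd68, at 1.25 to 1.65 CPM in non-stretched control and 2.34 to 3.37 in stretched knockdown cells. The part of these marker levels in the results on the Klf genes was not tested. In such bulk samples, fewer cells of a type and less RNA per cell cannot be told apart. Each library code also holds a number that is shared within a group and differs between groups, so if it marks a batch, batch and group cannot be told apart.

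Levels were compared between genes as CPM per kilobase of the longest coding transcript, which does not account for the mix of isoforms a cell uses. In non-stretched control cells, Klf10 stood highest, with a median of 18.4 CPM per kilobase (17.2 to 20.7), and Klf6 next, with 15.7 (13.9 to 17.5). Their ranges overlapped. Klf4 (12.0), Klf7 (11.7), Klf3 (11.0) and Klf13 (10.4) followed, each overlapping its neighbour in this order but separate from Klf6 above and Klf11 (8.72) below. Klf15 (3.59) and Klf5 (3.46) overlapped each other, and Klf2 was lowest, at 1.74 (1.37 to 2.39).

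The order of medians was not the same in the other groups. Klf6 had the highest median in both stretched groups, at 19.7 CPM per kilobase against 17.4 for Klf10 in control cells, where the ranges overlapped, and at 17.8 against 15.0 in knockdown cells, where they did not. Klf7 moved from the fourth place in non-stretched control cells to the seventh in non-stretched knockdown cells, with 6.75 CPM per kilobase. There it overlapped Klf13 (7.83) and lay above Klf5 (4.97). Klf2 had the lowest median in all 4 groups, and in stretched knockdown cells its range overlapped that of Klf15.

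**Figure D1:**
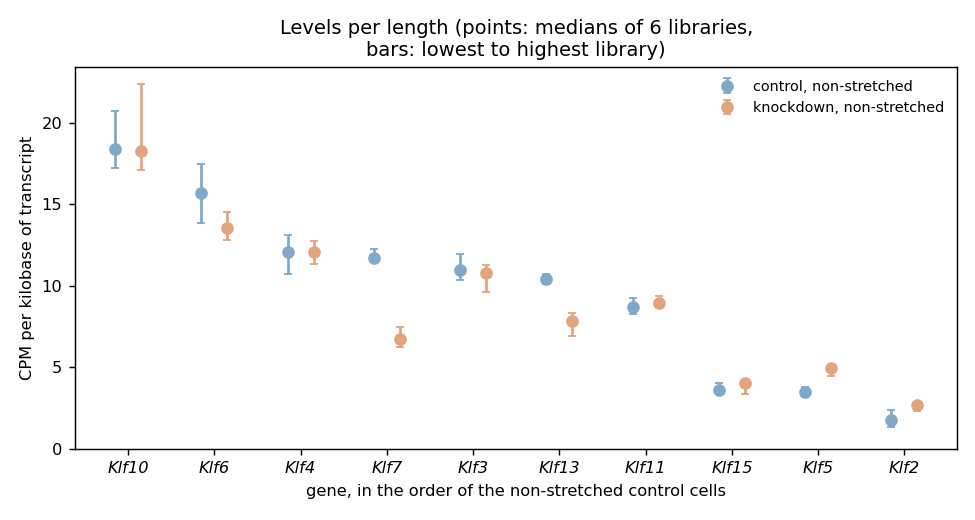
Level of each Klf gene per length (vertical axis, CPM per kilobase of the longest coding transcript, from 0) in non-stretched control and non-stretched knockdown cells, with points at the median of 6 libraries and bars from the lowest to the highest library. Klf10 (medians 18.4 and 18.2) and Klf6 (15.7 and 13.5) lead in both, Klf7 lies at 11.7 in control and 6.75 in knockdown cells, and Klf2 (1.74 and 2.67) is lowest.

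How far the group means lay apart differed between genes. The span between the highest and the lowest group mean, in log2 CPM, was 0.96 for Klf7, 0.61 for Klf2, 0.53 for Klf5, 0.51 for Klf6, 0.46 for Klf13 and 0.37 for Klf15. It was 0.33 for Klf10, 0.22 for Klf11, 0.12 for Klf4 and 0.11 for Klf3.

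**Figure D2:**
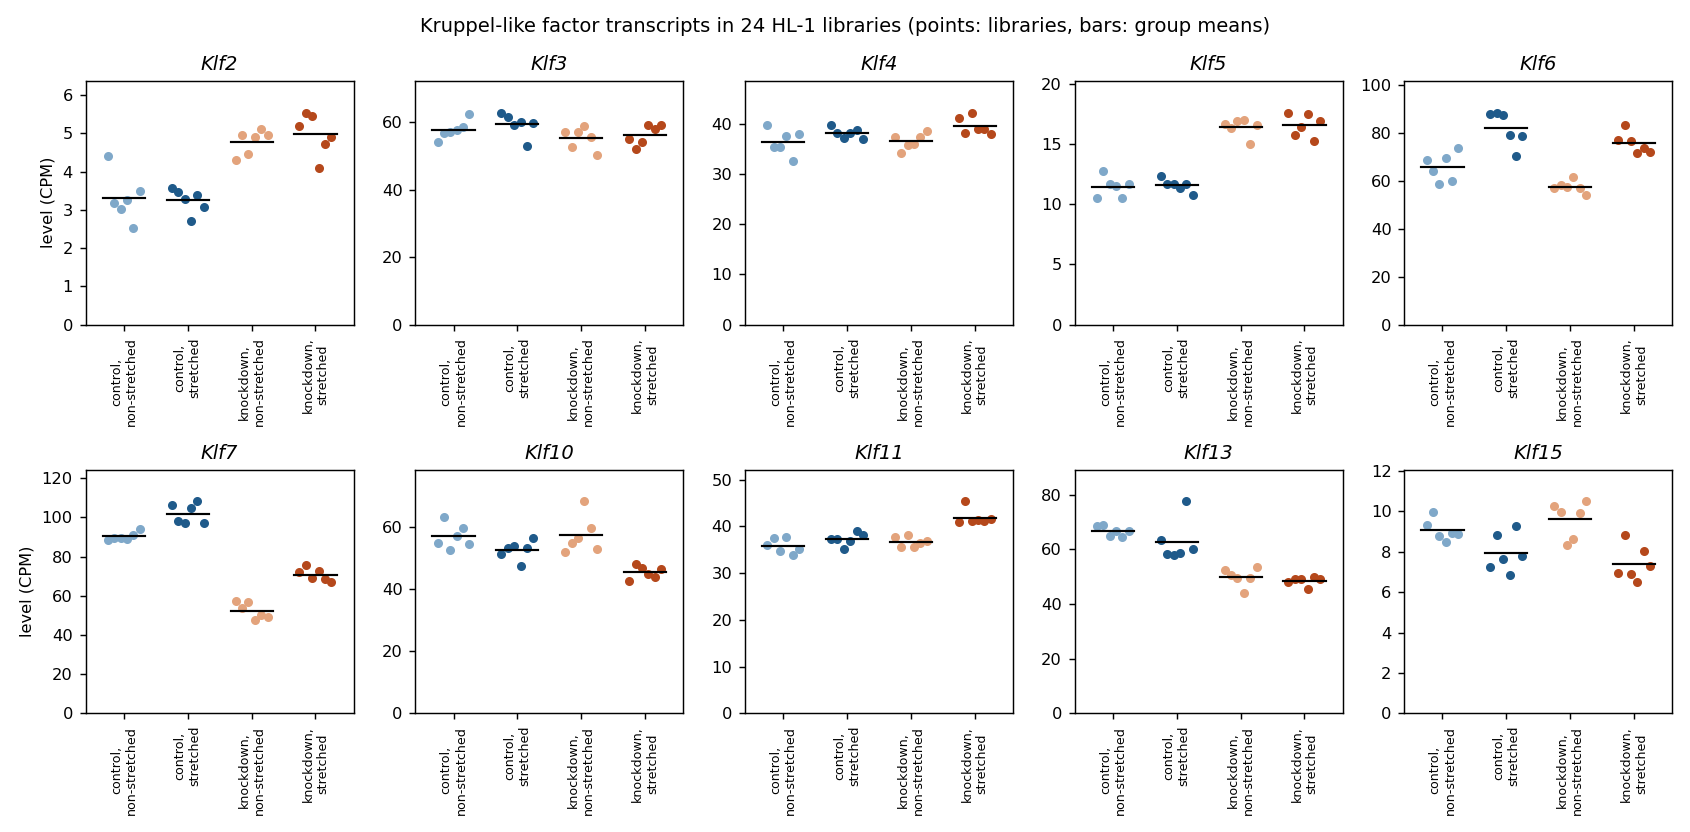
Level of each of the 10 Klf genes (CPM after TMM scaling, each axis from 0) in the 4 groups, with 1 point per library and a bar at the mean of 6. Klf7 has means of 90.3, 102, 52.4 and 70.8 CPM in non-stretched control, stretched control, non-stretched knockdown and stretched knockdown cells, while the means of Klf3 lie between 55.2 and 59.4 CPM.

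The first comparison asked which Klf genes responded to stretch in control cells, and here Klf6 and Klf7 rose. Klf6 is an early response gene known for growth control and tissue injury, and Klf7 is known for roles in neurons and fat cells. No member fell past the threshold. The 2 calls are 20.0% of the members, against 5.95% of all tested genes called in either direction, 2.55% higher and 3.39% lower. All were edgeR quasi-likelihood tests with Benjamini-Hochberg adjustment over the 14411 genes.

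Klf6 lay at 58.6, 66.3 and 73.7 CPM (lowest, median and highest of 6) in non-stretched control cells and at 70.3, 83.3 and 88.3 in stretched ones. The groups overlapped through stretched control replicate 5 alone, since the other 5 stretched libraries had at least 78.6 CPM. The log2 fold change was 0.32 (SE 0.0560, edgeR adjusted p = 0.000868). Klf7 lay at 88.6, 89.5 and 93.9 CPM without and at 97.1, 101 and 108 CPM with stretch, and its groups did not overlap. Its log2 fold change was 0.17 (SE 0.0412, edgeR adjusted p = 0.0115). Klf7 was the 1 member of 10 whose groups did not overlap, against 3.19% of all genes.

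Of the remaining activators, Klf4, known from stem cells and vascular injury, had means of 36.4 ± 2.52 and 38.2 ± 1.06 CPM (SD, n = 6; edgeR adjusted p = 0.355). Klf2 lay at 2.52 to 4.41 and 2.70 to 3.58 CPM, and Klf5, known to promote growth of vascular and cardiac stroma, at 10.6 to 12.8 and 10.8 to 12.4 (edgeR adjusted p = 0.890 and 0.871). None of these 3 passed the threshold.

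The repressor Klf3 had means of 57.7 ± 2.75 and 59.4 ± 3.43 CPM (SD, n = 6; edgeR adjusted p = 0.627). In the SIN3-binding group, the log2 fold changes were -0.12 for Klf10 (SE 0.0552, edgeR adjusted p = 0.218), 0.05 for Klf11 (0.380) and -0.09 for Klf13 (0.316), with the adjusted p in parentheses for the latter pair. Klf15 had 9.06 ± 0.531 and 7.94 ± 0.939 CPM, a log2 fold change of -0.20 (SE 0.0791, edgeR adjusted p = 0.138). These values did not pass the threshold.

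Stretched control replicate 5, the shallowest library, bears on this comparison. It had the highest Klf13 level of its group, 77.5 CPM against 57.8 to 63.3 in the other 5, and the lowest Klf3 level, 52.9 against 59.3 to 62.7. Without it the count of called members went from 2 to 4. Klf13 (log2 fold change -0.16, edgeR adjusted p = 0.00484) and Klf15 (-0.24, edgeR adjusted p = 0.0369) then joined Klf6 and Klf7, and the share of all genes called went from 5.95% to 14.0%.

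In knockdown cells, stretch was followed by higher Klf6, Klf7 and Klf11 and by lower Klf10 and Klf15. Klf10 and Klf11 are both known as TGF-beta-inducible repressors, and here they moved in opposite directions, although the call of Klf10 was lost with the authors' own scaling (adjusted p = 0.217, described below). The 5 calls are 50.0% of the members, against 8.93% of all tested genes, 5.32% higher and 3.61% lower. For 4 members the groups did not overlap, against 5.43% of all genes. The median log2 fold change of the 10 was 0.04 against -0.01 over all genes.

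Klf7 lay at 47.7, 51.7 and 57.4 CPM (lowest, median and highest of 6) in non-stretched and at 66.8, 70.8 and 75.6 in stretched knockdown cells. Every stretched library lay above every non-stretched one. This is a log2 fold change of 0.43 (SE 0.0421, edgeR adjusted p = 1.4e-07), a 1.35-fold higher level. Even so, all stretched knockdown libraries stayed below all control libraries, whose lowest value was 88.6 CPM.

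For Klf6, the values were 54.1, 57.2 and 61.4 CPM without and 71.4, 75.1 and 83.2 CPM with stretch. The groups did not overlap. The log2 fold change was 0.39 (SE 0.0562, edgeR adjusted p = 3.87e-05), a 1.31-fold higher level. Klf4 pointed the same way, at 36.5 ± 1.53 and 39.6 ± 1.69 CPM (SD, n = 6), but did not pass (log2 fold change 0.12, SE 0.0405, edgeR adjusted p = 0.0758). Klf2 and Klf5 had log2 fold changes of 0.06 and 0.01 (edgeR adjusted p = 0.786 and 0.900).

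Klf11 lay at 35.5, 36.6 and 38.2 CPM without and at 40.9, 41.2 and 45.3 CPM with stretch, with no overlap. The log2 fold change was 0.19 (SE 0.0339, edgeR adjusted p = 0.000440). Klf10 lay at 52.0, 55.5 and 68.2 CPM without and at 42.6, 45.5 and 48.2 CPM with stretch, again with no overlap. Its log2 fold change was -0.33 (SE 0.0552, edgeR adjusted p = 0.000204). The third SIN3-binding gene, Klf13, known in heart development as a partner of GATA4, had 49.9 ± 3.30 and 48.5 ± 1.58 CPM (SD, n = 6; edgeR adjusted p = 0.700).

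Klf15 lay at 8.33, 9.96 and 10.5 CPM without and at 6.50, 7.10 and 8.82 CPM with stretch. The ranges overlapped between 8.33 and 8.82 CPM. Its log2 fold change was -0.37 (SE 0.0782, edgeR adjusted p = 0.00275), a level 0.773 times that without stretch. Klf3 had 55.2 ± 3.18 and 56.3 ± 3.02 CPM (SD, n = 6; edgeR adjusted p = 0.768).

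**Figure D3:**
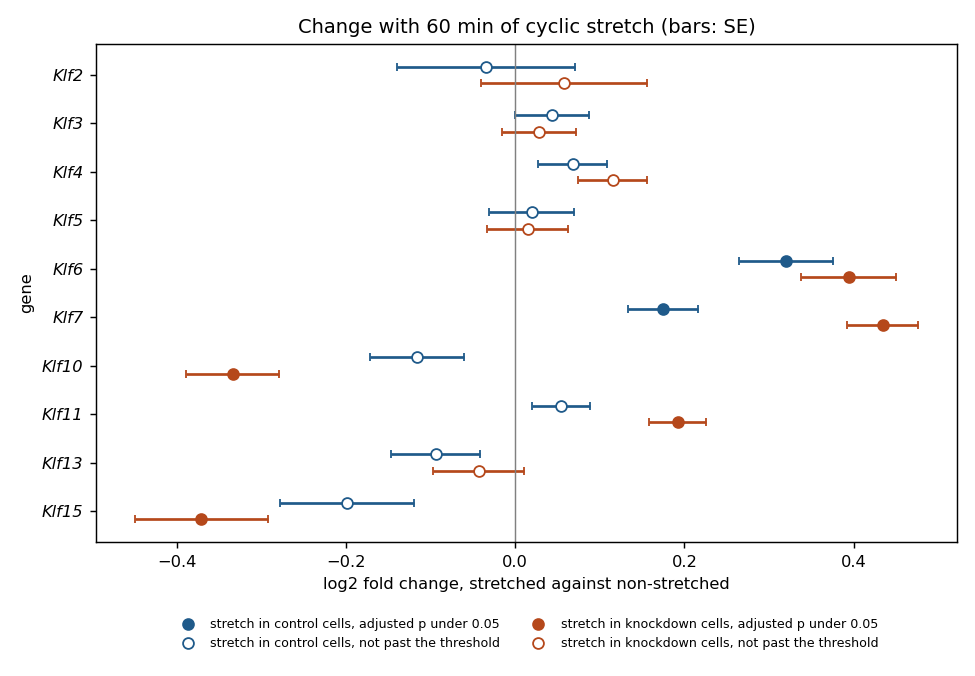
Log2 fold change after stretch (horizontal axis) for each Klf gene in control and in knockdown cells, with error lines of 1 SE; filled points passed edgeR's adjusted p of 0.05. Klf6 (0.32 and 0.39) and Klf7 (0.17 and 0.43) lie to the right in both, and Klf10 and Klf15 lie to the left, past the threshold in knockdown cells, with the authors' factors turning Klf10 in control cells to 0.27 and ending its call in knockdown cells.

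The next question was whether stretch acted differently in knockdown and control cells, which the interaction term tests. With edgeR, 0 of the 10 members passed it, against 0.0208% of all genes. At an unadjusted p under 0.05 there were 3 members, against 9.40% of all genes. DESeq2 called 1 member, against 0.77% of all genes, and limma-voom 0. So the calls of Klf10, Klf11 and Klf15 in knockdown cells alone were not shown to differ from control cells.

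Klf7 came nearest, with an interaction of 0.26 (SE 0.0589, edgeR adjusted p = 0.0713), and was the gene that DESeq2 called (adjusted p = 0.00804). In edgeR it passed with the letter of the library code as a factor (adjusted p = 0.0460). It also passed without stretched control replicate 5 (adjusted p = 0.0264) and without non-stretched knockdown replicate 1 (adjusted p = 0.0353). Its estimate lay between 0.26 and 0.29 in these fits, which called 0.312%, 0.753% and 0.117% of all genes. Klf7 did not pass with the authors' factors (edgeR adjusted p = 0.177) or the replicate block (edgeR adjusted p = 0.0624). With 1 library left out, its edgeR adjusted p ranged from 0.0264 to 0.229 and its estimate from 0.22 to 0.29. Klf10 had an interaction of -0.22 (SE 0.0781, edgeR adjusted p = 0.344), Klf11 of 0.14 (SE 0.0483, 0.331) and Klf15 of -0.17 (SE 0.111, 0.664). For Klf6 it was 0.07 (SE 0.0793, edgeR adjusted p = 0.832).

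The knockdown comparison without stretch asked which Klf genes differed when MuRF1 was reduced. Klf7 and Klf13 fell, Klf6 fell by less, and Klf2 and Klf5 rose. The 5 calls are 50.0% of the members, near the 57.8% of all tested genes called here (28.0% higher, 29.7% lower), so the share itself is no feature of the family. The same holds for the 3 members whose groups did not overlap, 30.0% against 37.8%. The median log2 fold change was 0.01 for the members and 0.01 for all genes.

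Klf7 went from 88.6, 89.5 and 93.9 CPM in non-stretched control cells to 47.7, 51.7 and 57.4 in knockdown cells, far from overlapping. The log2 fold change was -0.78 (SE 0.0420, edgeR adjusted p = 3.89e-15), a level 0.581 times that of control cells. Klf6 fell by 0.19 on the log2 scale (SE 0.0564, edgeR adjusted p = 0.00485), with overlapping ranges of 58.6 to 73.7 and 54.1 to 61.4 CPM. Klf6 and Klf7, the members that rose with stretch in control cells, thus both fell with the knockdown in non-stretched cells.

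Klf5 lay at 10.6, 11.6 and 12.8 CPM in control and at 15.0, 16.7 and 17.0 CPM in knockdown cells. The groups did not overlap, and the log2 fold change was 0.52 (SE 0.0491, edgeR adjusted p = 5.56e-10). Klf2, known for its induction by laminar flow, lay at 2.52, 3.21 and 4.41 CPM in control and at 4.31, 4.93 and 5.11 CPM in knockdown cells, which overlapped slightly. Its log2 fold change was 0.53 (SE 0.101, edgeR adjusted p = 6.06e-05). Klf4, which shares the ERK5 route with Klf2, had 36.4 ± 2.52 and 36.5 ± 1.53 CPM (SD, n = 6; edgeR adjusted p = 0.932).

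Klf13 lay at 64.5, 66.6 and 68.7 CPM in control and at 44.1, 50.1 and 53.4 CPM in knockdown cells, with no overlap and a log2 fold change of -0.42 (SE 0.0533, edgeR adjusted p = 1.62e-07). Its partners in the SIN3-binding group did not pass: Klf10 had a log2 fold change of 0.01 and Klf11 of 0.03 (edgeR adjusted p = 0.907 and 0.427). Klf3 (-0.07, edgeR adjusted p = 0.211) and Klf15 (0.09, edgeR adjusted p = 0.355) did not pass either.

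In stretched cells, the knockdown gave 6 calls among the members. Klf2, Klf5 and Klf11 rose, and Klf7, Klf10 and Klf13 fell. The 60.0% called stands beside 52.0% of all genes (25.1% higher, 26.9% lower), and 5 members did not overlap between groups, 50.0% against 31.9%. The median log2 fold change was -0.08 against 0.00248 over all genes.

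Klf7 lay at 97.1 to 108 CPM in stretched control and at 66.8 to 75.6 in stretched knockdown cells, apart from each other. The log2 fold change was -0.52 (SE 0.0415, edgeR adjusted p = 2.09e-11). Klf2, at 2.70 to 3.58 against 4.09 to 5.54 CPM, did not overlap and rose by 0.62 (SE 0.102, edgeR adjusted p = 9.17e-06). Klf5 rose by 0.52 (SE 0.0494, edgeR adjusted p = 9.27e-10), from 10.8 to 12.4 CPM in control up to 15.3 to 17.6 CPM in knockdown cells.

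Klf13 fell by 0.36 (SE 0.0536, edgeR adjusted p = 1.85e-06), from 57.8 to 77.5 CPM down to 45.5 to 49.8 CPM. Klf10 fell by 0.21 (SE 0.0556, edgeR adjusted p = 0.00240), with ranges of 47.6 to 56.5 and 42.6 to 48.2 CPM that overlapped slightly, a call also lost with the authors' scaling. Klf11 rose by 0.17 (SE 0.0341, edgeR adjusted p = 0.000126), from 35.1 to 39.0 up to 40.9 to 45.3 CPM, with no overlap.

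Klf6 had means of 81.9 ± 7.23 and 75.5 ± 4.39 CPM in stretched control and knockdown cells (SD, n = 6; log2 fold change -0.12, edgeR adjusted p = 0.0775). Without stretched control replicate 5 it passed, at -0.16 (edgeR adjusted p = 0.0108), as it did without stretched knockdown replicate 2, at -0.15 (edgeR adjusted p = 0.0316). Klf3 passed without the first of these libraries, at -0.11 (edgeR adjusted p = 0.0220), against -0.08 with it (adjusted p = 0.129). Klf4 (0.05) and Klf15 (-0.09) did not pass (edgeR adjusted p = 0.298 and 0.388). The comparisons share groups of libraries, so each gene's values stand side by side here and are not counted as repeats of one another.

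**Figure D4:**
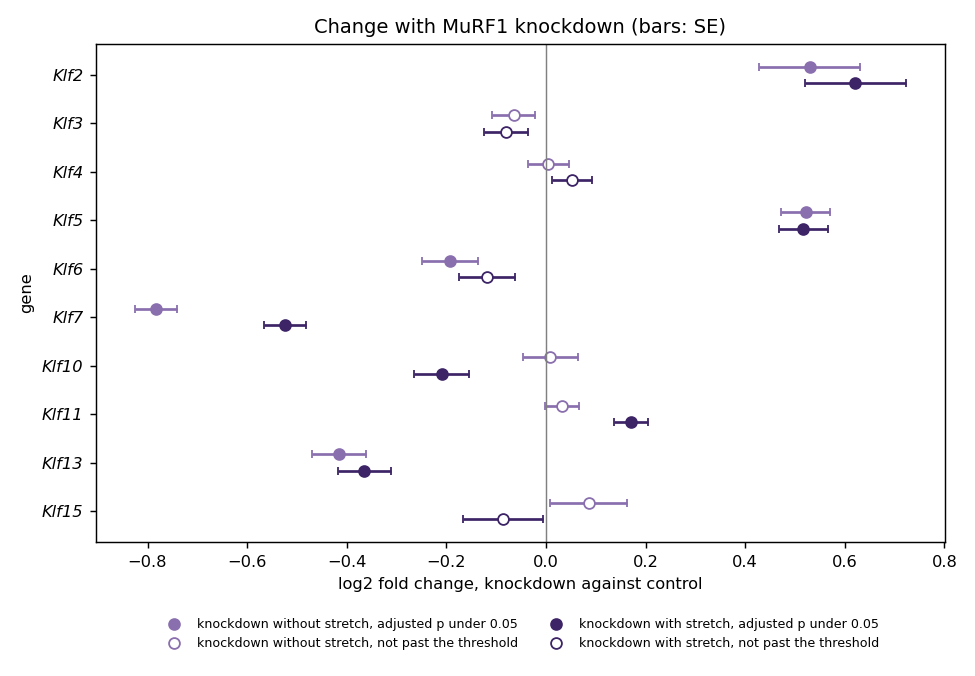
Log2 fold change with the knockdown (horizontal axis) for each Klf gene without and with stretch, with error lines of 1 SE; filled points passed edgeR's adjusted p of 0.05. Klf2 (0.53 and 0.62) and Klf5 (0.52 and 0.52) lie to the right, and Klf7 (-0.78 and -0.52) and Klf13 (-0.42 and -0.36) to the left.

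The result for Klf10 depended on the scaling. The authors' normalized table applies, beside a factor per library, a factor that differs between genes. For Klf10 the gene-specific part had an SD of 0.28 in log2 over the 24 libraries, from -0.72 to 0.45, and 3.17% of the tested genes had a larger one. The median over tested genes was 0.0188, and the other 9 members ranged from 0.00400 to 0.0745.

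In the authors' normalized signal, Klf10 lay at 1627, 2026 and 2740 (lowest, median and highest of 6) in non-stretched control and at 2051, 2416 and 3393 in stretched control cells. In knockdown cells the values were 1772, 2379 and 4789 without and 1549, 1977 and 2273 with stretch, so that all 4 groups overlapped. With the authors' factors as offsets in edgeR, stretch in control cells gave a log2 fold change of 0.27 (adjusted p = 0.509), the opposite sign to the -0.12 above. Stretch in knockdown cells gave -0.44 (edgeR adjusted p = 0.217) and the knockdown with stretch -0.38 (edgeR adjusted p = 0.123), so that both calls were lost. Klf10 has 6 coding transcripts of 326 to 3044 bases in the annotation, and how the authors' factor treats them is not given in the sources used here.

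**Figure D5:**
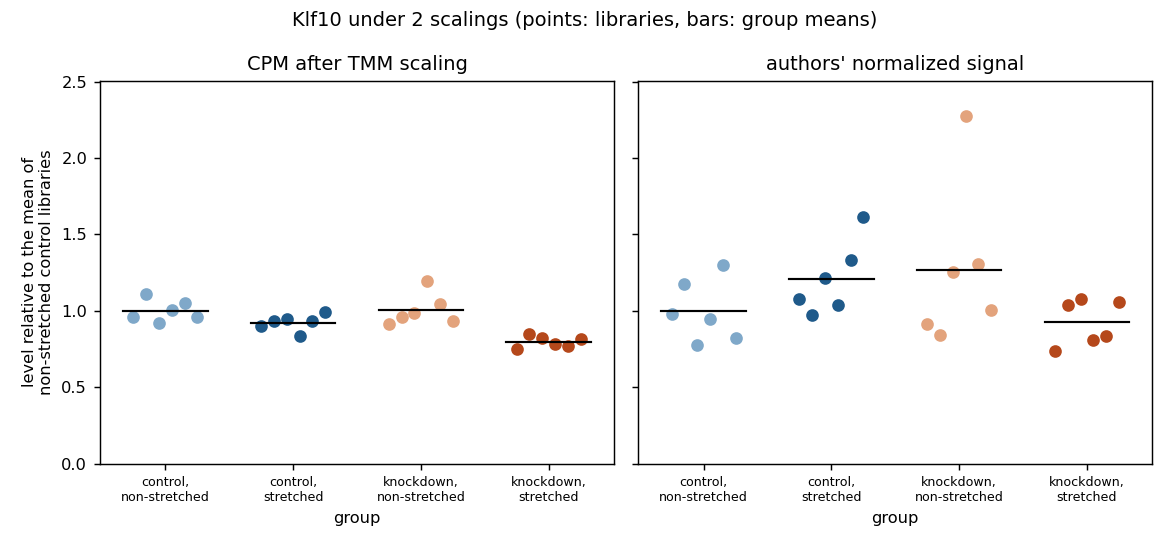
Klf10 in each library relative to the mean of the non-stretched control libraries (vertical axis, from 0), from CPM (left) and from the authors' normalized signal (right), with 1 point per library and a bar at the mean of 6. In CPM the stretched and non-stretched knockdown libraries are apart, and in the authors' signal they overlap (1549 to 2273 against 1772 to 4789 before this scaling).

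The likeness of profiles over the 24 libraries was measured as the root mean square difference of log2 CPM after each gene's own mean was taken away, with 11339 genes as candidates. For Klf7, whose own values had a root mean square of 0.374 about their mean, the nearest genes were Stard13 (0.106), Rasgef1b (0.113) and Ston1 (0.115). For Klf2 (0.330) they were Btg2 (0.133), Bbc3 (0.146) and Agrn (0.147), and for Klf5 (0.269) Samd4 (0.0805), Pus7 (0.0834) and Cpox (0.0865). Between members, Klf4 and Klf11 were nearest (0.0840), followed by Klf3 and Klf4 (0.121), while Klf2 and Klf7 lay farthest apart (0.660). The measure is not scaled by how much a gene varies, so genes that change little lie near one another. Klf3, Klf4 and Klf11 had the smallest spans of group means (0.11, 0.12 and 0.22), and Klf7 and Klf2 the widest (0.96 and 0.61). Nearness of the former genes thus does not show a shared pattern of change.

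The counts for the gene lists below stand beside the shares of all tested genes called. Those were 5.95% and 8.93% for stretch in control and knockdown cells, and 57.8% and 52.0% for the knockdown without and with stretch. No list was tested as a set. None was split by whether a gene acts for or against its route, or is raised or lowered by a Klf protein. Counts and medians over a list thus give no direction of the activity of a route or Klf protein. Of the 16 other Klf and Sp genes on the list, 13 were tested. After stretch, 1 rose and 1 fell in control cells (Klf9 and Sp6), and 2 rose in knockdown cells (Klf12 and Klf9). Klf9, a glucocorticoid-responsive member, had log2 fold changes of 0.16 (edgeR adjusted p = 0.0151) and 0.12 (edgeR adjusted p = 0.0489), and Klf12 rose by 0.21 (edgeR adjusted p = 0.0220). With the knockdown, 4 rose and 3 fell without stretch, and 4 rose and 2 fell with it. The CtBP-binding relatives of Klf3 went opposite ways there: Klf12 had -0.51 without and -0.31 with stretch (edgeR adjusted p = 1.4e-08 and 3.61e-05), and Klf8 had 0.46 and 0.38 (5.22e-07 and 1.51e-05).

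Most of the 11 genes of the ERK5 and MEF2 route fell with the knockdown, in which Klf2 was higher and Klf4 was not called. The list holds activators of the route as well as repressors of MEF2 proteins, and both kinds are in the counts. Without stretch 9 fell and 0 rose, beside 29.7% of all genes lower and 28.0% higher. The median log2 fold change was -0.30 against 0.01 for all genes. With stretch 7 fell and 0 rose, beside 26.9% lower and 25.1% higher, with a median of -0.21 against 0.00248. Mef2a, a factor that ERK5 activates, fell from 252 to 299 CPM down to 169 to 193 CPM without stretch (log2 fold change -0.58, edgeR adjusted p = 2.07e-11). Hdac7, a repressor of MEF2 proteins, had -0.63 without and -0.47 with stretch (edgeR adjusted p = 7.86e-11 and 3.3e-08), and Hdac9, another, -0.35 and -0.41 (edgeR adjusted p = 9.36e-09 and 4.42e-10). Stretch gave 1 call in control cells, Hdac7 (-0.18, edgeR adjusted p = 0.0390), and 1 in knockdown cells, Mef2a (0.15, edgeR adjusted p = 0.0464).

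The TGF-beta and SMAD list had 13 of 14 genes tested. The receptor gene Tgfbr2 was too low for the test, at 0.0273 to 0.269 CPM over all groups. In control cells the receptor gene Tgfbr1 rose with stretch (0.22, edgeR adjusted p = 0.0111) and the ligand gene Tgfb1 fell (-0.17, edgeR adjusted p = 0.0147), the only 2 calls of the list. In knockdown cells 2 rose, Tgfbr1 (0.20, edgeR adjusted p = 0.0170) and Skil (0.14, edgeR adjusted p = 0.0319), which encodes an inhibitor of SMAD proteins. With the knockdown, 3 rose and 6 fell without stretch, and 3 rose and 4 fell with it. Another ligand gene, Tgfb3, rose by 0.43 without and 0.31 with stretch (edgeR adjusted p = 1.56e-10 and 1.25e-07), and Smad3 fell by 0.29 and 0.19 (edgeR adjusted p = 5.42e-08 and 3.58e-05).

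Among 11 glucocorticoid receptor genes and targets, which are listed for their link to Klf15 and Klf9, 2 rose and 1 fell with stretch in control cells, and 3 rose in knockdown cells, where Klf15 fell. Sgk1, a kinase gene, went from 5.78 to 9.20 CPM up to 10.2 to 13.5 CPM in knockdown cells (log2 fold change 0.73, edgeR adjusted p = 4.26e-06). Dusp1, a phosphatase of MAP kinases, rose by 0.34 in control and 0.54 in knockdown cells (edgeR adjusted p = 0.0170 and 0.000119), and Tsc22d3 (GILZ) rose by 0.17 in control cells (edgeR adjusted p = 0.00487). The knockdown gave 2 rises and 4 falls both without and with stretch. Errfi1, an inhibitor of EGF receptors, had 0.51 and 0.55 (edgeR adjusted p = 2.22e-10 and 4.74e-11).

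The genes of branched-chain amino acid breakdown and related Klf15 targets, 16 of 18 tested, gave 1 call with stretch in control cells, Bckdk (-0.09, edgeR adjusted p = 0.0442), and 0 in knockdown cells. In the latter, Klf15 itself had the fall given above. With the knockdown, 4 rose and 9 fell without stretch and 3 rose and 7 fell with it, while Klf15 was called in neither. Mccc1, of leucine breakdown, fell by 0.58 and 0.52 (edgeR adjusted p = 4.55e-14 and 5.18e-13), and Ivd, of the same pathway, by 0.52 and 0.45 (6.91e-12 and 1.9e-10).

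Of 15 corepressor and acetyltransferase genes, stretch gave 1 call in all, a rise of Ep300 in knockdown cells (0.10, edgeR adjusted p = 0.0320). The knockdown gave 2 rises and 9 falls without stretch and 4 rises and 5 falls with it. Kat2b, an acetyltransferase, fell by 0.41 and 0.34 (edgeR adjusted p = 7.12e-12 and 4.83e-10), and Sap30, a SIN3 subunit, by 0.68 and 0.59 (9.8e-10 and 1.57e-08). The list of 9 ubiquitin ligases holds Trim63, the target of the knockdown. Whether these ligases act on Klf proteins was not tested here. With the knockdown 3 rose and 4 fell without stretch, and 2 rose and 3 fell with it. Trim63 was among the falls in both. Fbxo32 (atrogin-1), the other muscle-specific ligase of the list, had log2 fold changes of -1.15 and -0.90 (edgeR adjusted p = 1.58e-17 and 4.08e-15). With stretch, 1 rose and 1 fell in control cells, and 1 rose in knockdown cells. The gene that rose was Trim63 in both (log2 fold change 0.29 and 0.30, edgeR adjusted p = 0.0174 and 0.0129).

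Known targets of Klf2 and Klf4 in endothelium, 10 of 12 tested, gave 1 rise in control cells after stretch, Hmox1 (0.18, edgeR adjusted p = 0.000167), and 2 in knockdown cells, Nfe2l2 (0.13, edgeR adjusted p = 0.0210) and Edn1 (0.41, edgeR adjusted p = 0.0337). With the knockdown, where Klf2 rose, 2 rose and 4 fell without stretch, and 2 rose and 5 fell with it. Of all tested genes, 57.8% and 52.0% were called there. The list's median log2 fold change was -0.22 without and -0.43 with stretch, against 0.01 and 0.00248 for all genes. The list was not split into genes raised and genes lowered by Klf2 and Klf4, so this median gives no direction of their activity. Thbd (thrombomodulin) went from 3.58 to 4.26 CPM up to 10.1 to 13.3 CPM without stretch, with no overlap. Its log2 fold change was 1.51 without and 1.37 with stretch (edgeR adjusted p = 1.06e-16 and 2e-15). Cav1, of caveolae, fell by 0.59 and 0.65 (edgeR adjusted p = 2.21e-10 and 4.79e-11).

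Among 15 of 17 cell cycle and growth genes known as targets of Klf4, Klf5, Klf6 or Klf10, 3 rose with stretch in control cells and 2 in knockdown cells, and none fell. Ctgf, a matricellular protein gene, rose in both (0.40 and 0.39, edgeR adjusted p = 0.0190 and 0.0119), as did Myc (0.32 and 0.45, edgeR adjusted p = 0.0253 and 0.00106). Cdkn1a (p21) rose in control cells (0.14, edgeR adjusted p = 0.0109) and had 0.04 in knockdown cells (edgeR adjusted p = 0.555). The knockdown gave 4 rises and 9 falls both without and with stretch. Cdkn1a lay at 90.6 to 101 CPM in non-stretched control and at 162 to 177 CPM in knockdown cells (log2 fold change 0.82, edgeR adjusted p = 3.12e-18). Cdkn1c (p57), another inhibitor of the cell cycle, fell from 37.6 to 44.1 CPM down to 15.8 to 18.4 CPM (log2 fold change -1.28, edgeR adjusted p = 3.16e-17). The interaction test called 0 genes in each of these 9 lists.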

How the data were processed

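The genome build was GRCm38.p6, and the tools were R 3.4.4, kallisto 0.44.0 and DESeq2 1.18.1, per the submitters' processing notes. Both tables deposited by the authors cover the same genes, one with estimated counts (36.6% whole, to 1e-09) and one with a normalized signal. The annotation release is not given in the sources used here.

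Estimated counts were rounded and fitted over the whole table with edgeR 4.0.16 in R 4.3.3: TMM factors, filterByExpr (minimum count 10, minimum total 15), robust quasi-likelihood, 1 coefficient per group, all 24 libraries and 20 residual degrees of freedom. Benjamini-Hochberg adjustment covered all 14411 genes tested, and the threshold was 0.05. The interaction is the difference between both stretch responses. Separate cultures are not stated for the replicates, so p-values measure only the spread among these libraries and that spread may be technical.

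The members and gene lists were chosen with earlier results of these data known. All members are named, and of each other list at most the 2 genes with the smallest adjusted p per comparison. Cell type markers and Tgfbr2 were named outside this rule. The likeness search covered genes with a mean log2 CPM of at least 1. Alternatives were DESeq2 1.42.0, limma-voom (limma 3.58.1), other size factors, other filters, the authors' factors, a replicate block, the code letter, the compared groups alone and each library left out. Motifs were counted in RefSeq promoter windows.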

Additional observations from a re-analysis of the deposited data

Results flagged for a closer look

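In 4 of 40 sets of 6 libraries (10 genes in 4 groups), the highest or lowest library stood apart by Dixon's test, in which its gap to the next one is set against the group's whole range. Chance alone flags about 1 set in 20. Stretched control replicate 5 accounted for 2 of the 4. It had the lowest Klf3 level of its group, 52.89 CPM against 59.3 to 62.7 in the others, and the highest Klf13 level, 77.46 CPM against 57.8 to 63.3. Klf5 was lowest in non-stretched knockdown replicate 5, at 14.99 CPM against 16.4 to 17.0. Klf11 was highest in stretched knockdown replicate 2, at 45.3 CPM against 40.9 to 41.5.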

How the results depend on the processing

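Each of 50 member results (10 genes in 5 comparisons) was recomputed under the settings that apply to it, 33 in all. Of the 18 past the threshold, 16 kept their direction and call in all of them, and the other 2 are the Klf10 calls lost with the authors' factors. Among results that were not called, the authors' factors turned the sign of Klf10 (0.27) and Klf3 (-0.0327) for stretch in control cells, of Klf3 (-0.0188) and Klf13 (0.0011) for stretch in knockdown cells, and of Klf3 (0.0139) for the interaction. The cause was not tested.

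Leaving out 1 library at a time gave 2 to 4 called members for stretch in control cells and 5 to 5 in knockdown cells. The knockdown gave 5 to 5 without and 6 to 8 with stretch, and the interaction 0 to 1. The highest counts, 4 and 8, both came without stretched control replicate 5. That fit called 14.0% and 55.4% of all genes in these comparisons, against 5.95% and 52.0% in the main fit. With other libraries left out, 3.92% to 5.73% were called for stretch in control cells and 5.91% to 8.69% in knockdown cells. For the knockdown, at most 57.5% were called without and 50.4% with stretch. For the interaction, no fit with 1 library left out called more than 0.753%. Signs of small, uncalled values changed there: stretch in control cells for Klf2 (-0.1057 to 0.0688) and Klf5 (-0.0047 to 0.0504), stretch in knockdown cells for Klf5 (-0.0116 to 0.0362), the knockdown without stretch for Klf4 (-0.0267 to 0.0358) and Klf10 (-0.0196 to 0.039), and the interaction for Klf2 (-0.0114 to 0.163), Klf3 (-0.0443 to 0.0077) and Klf5 (-0.0398 to 0.019). The interaction had 1 called member, Klf7, with the code letter as a factor and 1, the same gene, with DESeq2. Of all genes, 0.312% and 0.77% were called in these fits. Over all genes, stretch in control cells had 857 calls, 377 with the compared groups alone and 2023 without stretched control replicate 5. On the given strand alone, the GC box was in 6 and the KLF box in 2 of the 8 member windows.

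The replicate numbers were also used as a block. Of 36 pairs of libraries with the same number in different groups, 3 had a correlation of deviations over 0.1. Of 180 pairs with other numbers, 11 did. The median correlations were 0.015 and -0.00523. Further, 8 of 24 libraries correlated best with a library of their own number. The count to expect without pairing was not computed. These values do not settle whether the numbers pair the samples, and the main fit left the numbers out. With the replicate block 3 members were called for stretch in control cells, Klf15 (-0.20, edgeR adjusted p = 0.0411) joining, against 6.56% of all genes. In the other comparisons 5, 5, 6 and 0 members were called, against 9.74%, 58.1%, 52.5% and 0.0625% of all genes.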
